A study of Homo sapiens with 24 samples.

Results

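The transcriptional effect of an eGFP expression plasmid was compared between HEK293T cells, an adenovirus-transformed human embryonic kidney line that carries the SV40 large T antigen, and A549 cells, a human lung adenocarcinoma line. The comparison used 12 of the 24 libraries of the series, 3 labelled replicates in each of 4 groups: HEK293T with eGFP plasmid, HEK293T with scramble plasmid, A549 with eGFP plasmid and A549 with scramble plasmid. All cells were collected 48 h after lipid transfection, and rRNA-depleted, poly(A)-enriched RNA was sequenced from stranded libraries. The scramble RNA was driven by a U6 promoter, which RNA polymerase III transcribes, whereas the eGFP plasmid encodes a protein, so the contrast joins the eGFP product with every other difference between the plasmids and the transfections, and these cannot be told apart here. The remaining 12 libraries received a U6-driven snaR-A plasmid or an SF3B2 plasmid, and they are set beside the scramble libraries below. The study's methods call the 3 replicates biological and handled on 1 day, and the labels only number them, so p-values measure the spread between these libraries. The table holds no row for eGFP itself, and the transgene could not be checked.

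Double-stranded RNA and cytosolic DNA are recognised by sensors such as RIG-I (RIGI), MDA5 (IFIH1) and cGAS (CGAS), which induce type I and type III interferons. The interferons act on their receptors through JAK kinases and transcription factors such as STAT2 and IRF9, and these bind the interferon-stimulated response element before genes such as IFIT1, MX1 and ISG15. HEK293T cells are widely used as transfection hosts and are known for a weak response to cytosolic DNA, whereas A549 cells respond to RNA sensing and to interferon. Hypoxia-inducible factors, which act on the glucose transporter SLC2A3 and on glycolytic enzymes, and sterol response element-binding proteins, which act on INSIG1 and the cholesterol synthesis enzymes, are further systems that cells adjust when their growth conditions change.

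The libraries held between 195186194 and 260878268 estimated counts, so that 3 counts, the limit that a count of 0 allows, corresponded to 0.0115 to 0.0154 CPM, the unit of all levels below (counts scaled to one common library total). This limit covers counting error only. Both labels were checked on lists of 12 genes chosen to mark each line. The A549 genes summed to between 10310.2 and 12247 CPM in the 6 A549 libraries and to between 39.1 and 56.1 CPM in 5 of the 6 HEK293T libraries. In HEK293T eGFP replicate 3 they summed to 449 CPM, and each of the 12 stood at 2.44% to 7.32% of its mean level in A549, with a median of 3.86%. The same median was 0.0287% and 0.0221% in eGFP replicates 1 and 2. The aldo-keto reductase AKR1B10 measured 0.0858, 0.1499 and 99.5 CPM in the 3 HEK293T eGFP libraries, and S100A6 measured 0, 0.00769 and 13.8 CPM. HEK293T eGFP replicate 3 therefore carries transcripts of A549 genes at levels that the other replicates lack. How they came to be there was not tested. Of these genes, 9 of the 12 were called higher with eGFP in HEK293T over all libraries, whereas 4 were called lower without this library. The 12 HEK293T genes summed to between 449.8 and 782 CPM in the HEK293T libraries and to between 171 and 204 CPM in the A549 libraries. CRABP1 does not mark the line here, at 0 to 0.01695 CPM in HEK293T and 0.201 to 0.349 CPM in A549. The HEK293T genes were lower in sum in the HEK293T eGFP libraries (449.8 to 457 CPM) than with scramble (725 to 782 CPM), mainly through NEFM and NEFL, which encode neurofilament chains and changed by -1.58 ± 0.15 and -0.83 ± 0.06 on the log2 scale (SE). A549 scramble replicate 3 stood apart in the splicing factor SF3B2, at 8773 CPM against 372 and 340.1 CPM in scramble replicates 1 and 2 and 45567 to 48888 CPM in the A549 libraries that received the SF3B2 plasmid. Results are therefore given over all 12 libraries and again over the 10 libraries that remain without HEK293T eGFP replicate 3 and A549 scramble replicate 3.

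**Figure D1:**
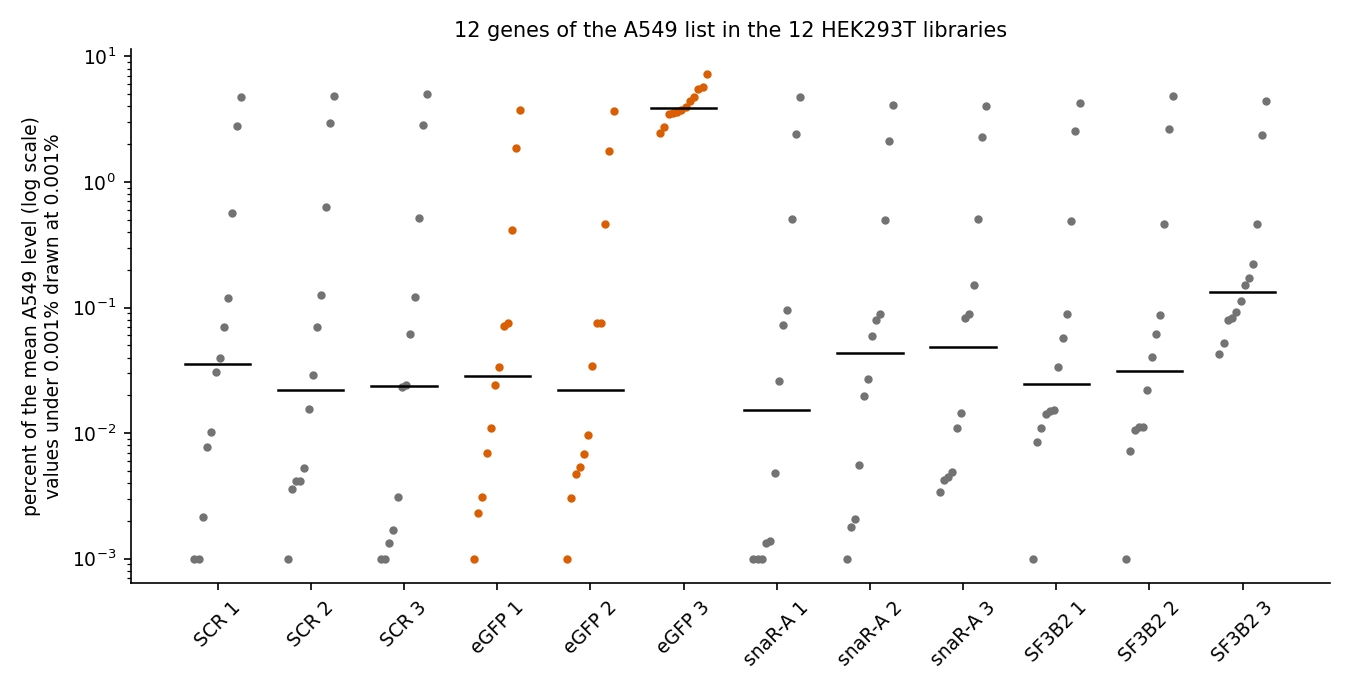
Level of the 12 A549 genes in each of the 12 HEK293T libraries, as a percentage of the mean over the 6 A549 eGFP and scramble libraries, on a log axis; each point is 1 gene, black lines are medians, and eGFP libraries are orange. In eGFP 3 the median was 3.86%, against 0.132% in SF3B2 3, the next highest library.

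Of 24763 genes tested over the 12 libraries, 6533 had an eGFP effect that differed between the lines by an interaction test (edgeR's quasi-likelihood test with Benjamini-Hochberg adjustment, as for every adjusted p here). The HEK293T effect was above the A549 effect for 2672 of them, or 10.8% of the genes tested, and below it for 3861, or 15.6%. Over the 10 libraries, 6963 of 25475 genes differed, 9.95% above and 17.4% below. The split by direction depended on the scaling between libraries. With library size alone in place of TMM factors, 3626 of 5852 differing genes, or 62.0%, were above, against 40.9% with TMM, and the median log2 fold change of all genes in HEK293T was 0.12 against -0.04.

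The lines differed in the number of genes that passed a threshold of adjusted p under 0.05 and a change of more than 2-fold. In HEK293T, 1967 genes (7.94% of those tested) were higher with eGFP and 728 (2.94%) were lower, and over the 10 libraries 1790 (7.03%) were higher and 873 (3.43%) lower. In A549, 187 genes (0.755%) were higher and 4 were lower, and over the 10 libraries 191 (0.75%) were higher and 9 lower. Of the 1967 genes higher in HEK293T, 235 (11.9%) were at least 3-fold higher in eGFP replicate 3 than in both other eGFP replicates, against 4.18% of all genes tested. All 235 had a mean level in A549 at least 10 times that in HEK293T eGFP replicates 1 and 2. The share of all genes with such an A549 level was not computed. The choice by replicate 3, which carries A549 transcripts, can itself favour such genes. Of the genes called higher in HEK293T, 24 were also called higher in A549, which is 1.22% of the HEK293T genes and 12.8% of the A549 genes.

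A response was counted as limited to 1 line where the gene passed the threshold in that line, the difference between the lines passed its own test, the 95% interval of the change in the other line lay wholly within 2-fold, and the gene was measured there at 0.5 CPM or more. By this count 614 responses (2.48% of the genes tested) were limited to HEK293T, 398 of them higher and 216 lower, and 70 (0.283%) were limited to A549, 67 of them higher and 3 lower. Over the 10 libraries the counts were 746 (2.93%) and 77 (0.302%), and 564 and 64 genes were in both. Genes called in both lines were fewer. Over the 12 libraries 24 (0.0969%) moved in the same direction, all higher, and 10 (0.0404%) moved in opposite directions, all lower in HEK293T and higher in A549, and over the 10 libraries the counts were 17 (0.0667%) and 13 (0.051%). The other 2047 calls in HEK293T and 87 in A549 could be assigned to neither line alone. Of the HEK293T calls, 1081 had an interaction that missed its threshold and 893 were under 0.5 CPM in A549.

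**Figure D2:**
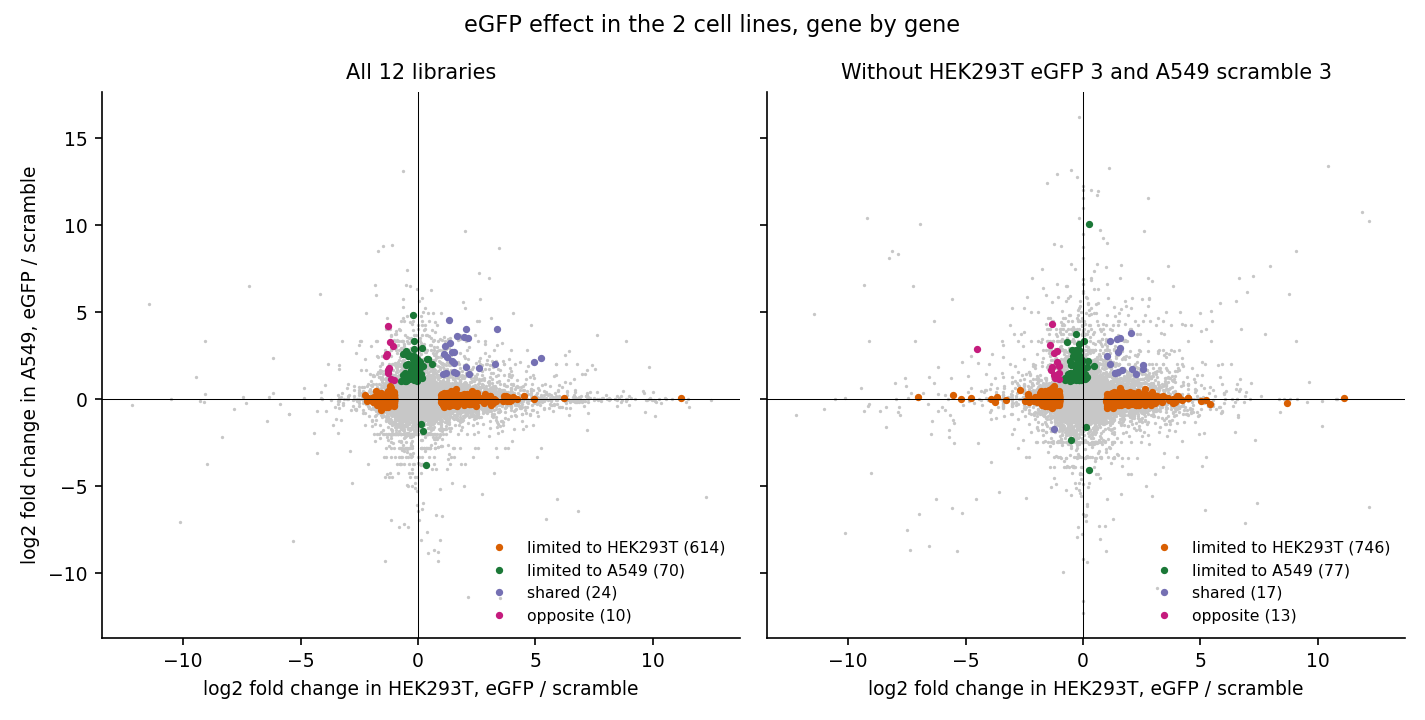
Log2 fold change of eGFP against scramble in HEK293T (x axis) and in A549 (y axis) for every gene tested, over all 12 libraries (left) and without the 2 libraries that stand apart (right); grey points are genes in no class. Responses limited to HEK293T (614 and 746 genes) lie along the horizontal axis on both sides, and those limited to A549 (70 and 77) lie almost wholly above it.

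The A549 response was led by interferon-stimulated genes. Of 53 interferon effectors tested, 42 were higher with eGFP in A549 past the threshold, against 0.755% of all genes higher, with a median log2 fold change of 2.28 against -0.0041 for all genes. Over the 10 libraries 50 of 53 were higher past the threshold, with a median of 2.24. IFIT1, which binds viral RNA lacking cap methylation, was at 123, 96.2 and 94.4 CPM in the A549 scramble libraries and at 1099, 1156 and 895 CPM in the eGFP libraries. All eGFP libraries stood above all scramble libraries, a log2 fold change of 3.33 ± 0.29 (SE, adjusted p = 7.7e-05). In HEK293T the same gene was at 9.41, 10.996 and 10.1 CPM with scramble and 6.895, 6.59 and 14.4 CPM with eGFP. The groups overlapped, the log2 fold change was -0.18 ± 0.27 (95% interval -0.77 to 0.41), and the difference between the lines was -3.51 ± 0.39 (adjusted p = 0.00017). Without the 2 libraries the HEK293T change was -0.67 ± 0.13 (adjusted p = 0.0033), lower with eGFP.

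GBP1, an interferon-induced GTPase, rose in A549 from 2.09, 1.86 and 1.79 CPM to 14.2, 15.7 and 11.8 CPM (log2 fold change 2.86 ± 0.15, adjusted p = 1.9e-06). In HEK293T, where it stood at a like level with scramble (1.65, 1.98 and 1.75 CPM), it measured 1.46, 1.59 and 1.87 CPM with eGFP, a change of -0.19 ± 0.14 with groups that overlapped. PLEKHA4, a plasma membrane adaptor with a pleckstrin homology domain, rose in A549 from 2.11, 1.65 and 2.098 CPM to 14.4, 13.8 and 11.2 CPM (2.75 ± 0.13, adjusted p = 1.3e-06) and changed by -0.51 ± 0.12 in HEK293T (adjusted p = 0.0071), within 2-fold. IFIT1, GBP1 and PLEKHA4 had the largest differences among responses limited to A549 in both fits at a mean log2 CPM of at least 1. MX1, which blocks the entry and replication of several viruses, rose in A549 from 70.4, 54.5 and 52.5 CPM to 637, 647 and 539 CPM. In HEK293T it measured 0.308, 0.381 and 0.369 CPM with scramble and 0.358, 0.384 and 3.77 CPM with eGFP, high in replicate 3 alone. The MX1 difference between the lines was -1.31 ± 1.01 over the 12 libraries (adjusted p = 0.37) and -3.28 ± 0.24 without the 2 libraries (adjusted p = 3.7e-05).

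**Figure D3:**
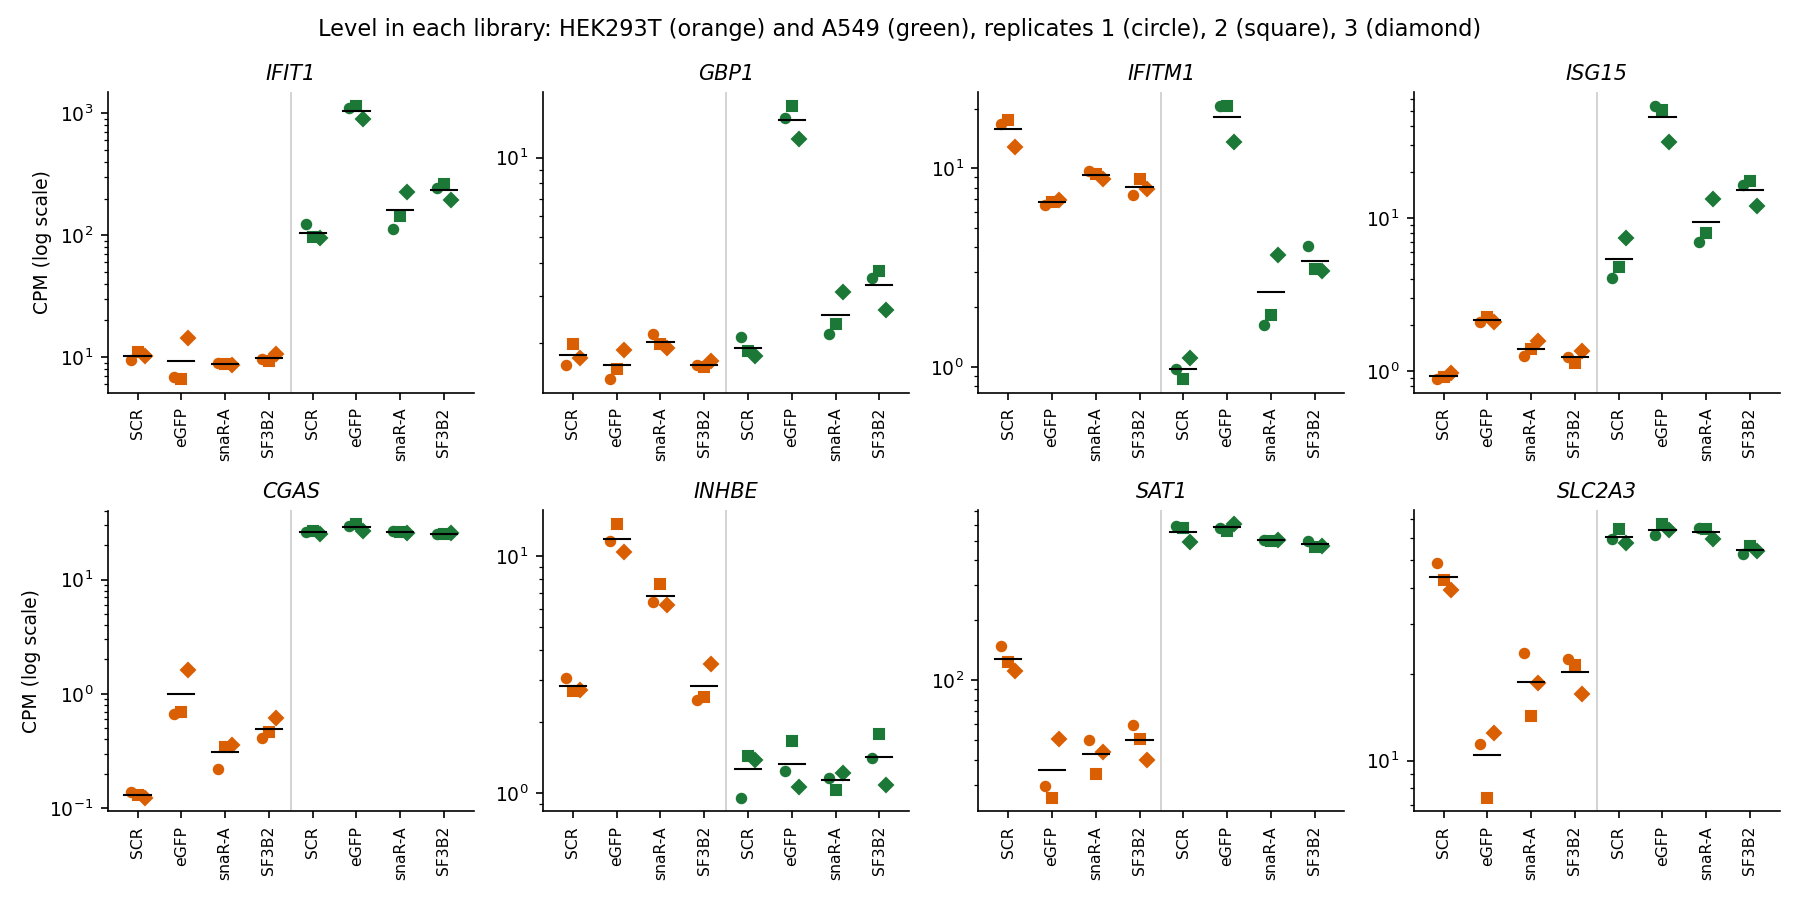
CPM of 8 genes in each of the 24 libraries (log axis), HEK293T in orange and A549 in green, by plasmid; symbols are replicates and black lines are means of 3. IFIT1 and GBP1 are highest in the A549 eGFP libraries, IFITM1 also falls in HEK293T, ISG15 rises in both lines, and CGAS, INHBE, SAT1 and SLC2A3 differ between eGFP and scramble in HEK293T.

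The interferon genes themselves were detected in A549 and were at or near the counting limit in HEK293T. IFNB1, the type I ligand, was at 0.0477, 0.121 and 0.183 CPM in the A549 scramble libraries and 1.31, 1.54 and 1.08 CPM with eGFP, which is 3.47 ± 0.45 as a log2 fold change (adjusted p = 0.0043). Behind these values were 9, 26 and 36 counts with scramble and 277, 326 and 200 with eGFP. The type III ligand IFNL1 rose from 0.0742, 0.09299 and 0.117 to 1.29, 1.07 and 1.36 CPM (3.7 ± 0.32, adjusted p = 0.00028), and IFNL2 and IFNL3, which are close paralogs whose reads cannot be separated with certainty, changed by 4.41 and 3.88. In HEK293T, IFNB1 and IFNL1 had 0 counts in 5 of the 6 libraries and 1 count in eGFP replicate 3, so their effect in that line could not be measured and the difference between the lines was not called. The receptor subunit IFNAR2 was lower with eGFP in HEK293T, at 22.6, 23.2 and 23.4 CPM against 37.6, 39.8 and 36.5 CPM (-0.78 ± 0.06, adjusted p = 1.2e-05), and changed by 0.11 ± 0.06 in A549, a difference of -0.88 ± 0.09 (adjusted p = 0.00011). IFNGR2, a subunit of the type II receptor, differed less (-0.47 ± 0.15, adjusted p = 0.042), and over the 10 libraries that difference had an adjusted p of 0.063.

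Among the nucleic acid sensors, 8 of 14 were higher past the threshold in A549, against 0.755% of all genes, and 9 over the 10 libraries, against 0.75%. IFIH1 rose from 19.3, 14.4 and 12.8 to 124, 129 and 107 CPM (2.95 ± 0.23, adjusted p = 3.6e-05), against 0.16 ± 0.23 in HEK293T. RIGI rose from 73.8, 53.01 and 43.3 to 374, 397 and 330.0 CPM (2.69 ± 0.33, adjusted p = 0.0011), although 45.7% of the 31-base words of its annotated transcripts also occur in another gene. TLR3, the endosomal sensor of double-stranded RNA, rose from 3.24, 2.31 and 2.64 to 20.5, 19.8 and 15.3 CPM (2.76 ± 0.32). The sensors EIF2AK2 (PKR), TRIM25 and ZNFX1 changed by 1.31, 1.31 and 1.29 in A549 and by 0.04, -0.06 and 0.05 in HEK293T, and were limited to A549 in both fits. CGAS was the 1 sensor of the list whose difference between the lines passed the threshold with the higher effect in HEK293T. Like some other sensors it did not pass the threshold in A549 (0.15 ± 0.26), and it was higher in HEK293T, as given below.

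Of the transducers, STAT2 and IRF1 were among those limited to A549. STAT2 rose from 62.4, 55.1 and 58.04 to 258, 255.9 and 194 CPM (2.01 ± 0.12, adjusted p = 2.9e-06) and was at 39.7, 31.98 and 38.5 CPM with scramble and 34.9, 31.2 and 34.1 CPM with eGFP in HEK293T. SOCS1, the feedback inhibitor of JAK kinases, rose by 1.99 ± 0.26 in A549 and changed by 0.51 ± 0.29 in HEK293T, where it was under 0.5 CPM. In the MHC class I list, 6 of 19 genes were higher past the threshold in A549, against 0.755% of all genes. B2M, the invariant light chain, changed by 1.14 in A549 and -0.40 in HEK293T, the peptide transporter TAP1 by 1.52 and -0.32, and the transactivator NLRC5 by 2.3 ± 0.15 and -0.11 ± 0.14. The counts of HLA genes can be divided among near-identical copies and are uncertain, as for HLA-F, which differed by -3.17 ± 0.63 at levels under 1 CPM. CXCL10, a chemokine induced by interferon, rose in A549 from 0.344, 0.339 and 0.234 to 2.68, 2.57 and 1.23 CPM (2.82 ± 0.35, adjusted p = 0.0011) and stayed at or under 0.04104 CPM in the HEK293T eGFP and scramble libraries. CXCL11 and CCL5, 2 further chemokines, were called higher in both lines in both fits, by 2.59 and 1.54 in HEK293T and 1.79 and 1.57 in A549. In bulk RNA, more responding cells and more RNA per responding cell cannot be told apart.

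Interferon effectors that were called in HEK293T showed several patterns. The first was a rise in both lines. ISG15, a ubiquitin-like modifier, rose in HEK293T from 0.889, 0.923 and 0.973 to 2.11, 2.25 and 2.11 CPM (1.16 ± 0.23, adjusted p = 0.0025) and in A549 from 4.04, 4.77 and 7.43 to 54.3, 50.6 and 31.5 CPM (3.07 ± 0.24, adjusted p = 3.2e-05), a larger rise in A549 by -1.91 ± 0.32 (HEK293T minus A549, adjusted p = 0.0018). ISG20, an exonuclease, rose in HEK293T from 0.546, 0.602 and 0.382 to 2.22, 2.91 and 2.08 CPM (2.17 ± 0.17) and in A549 from 5.29, 6.002 and 6.07 to 16.3, 15.9 and 14.7 CPM (1.43 ± 0.16), and here the HEK293T change was the larger by 0.73 ± 0.23 (adjusted p = 0.037). That direction turned with other controls, to a difference of -0.38 against snaR-A and, without HEK293T eGFP replicate 3, to -0.32 against snaR-A and -0.47 against SF3B2. PARP12, a mono-ADP-ribosyltransferase, rose in HEK293T from 0.0553, 0.04197 and 0.103 to 0.392, 0.411 and 1.21 CPM (3.29 ± 0.50, and 2.55 ± 0.28 without replicate 3) and in A549 from 27.7, 25.9 and 24.4 to 112, 112 and 86.6 CPM (2.0 ± 0.34), and the changes did not differ past the threshold (adjusted p = 0.15).

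The second pattern was opposite movement. IFITM1, a membrane protein that blocks the fusion of viruses with cells, fell in HEK293T from 16.8, 17.5 and 12.8 to 6.56, 6.74 and 6.93 CPM (-1.28 ± 0.17, adjusted p = 0.0002) and rose in A549 from 0.975, 0.869 and 1.11 to 20.7, 20.5 and 13.5 CPM (4.21 ± 0.19, adjusted p = 1e-06). Groups did not overlap in either line, and 37.8% of the words of IFITM1 transcripts are shared with another gene. IFI44L fell in HEK293T from 2.16, 3.11 and 2.26 to 1.09, 0.926 and 1.39 CPM (-1.21 ± 0.28) and rose in A549 from 2.2999, 1.64 and 1.13 to 19.6, 17.9 and 12.6 CPM (3.3 ± 0.29). LAMP3, a lysosomal membrane protein, fell from 4.63, 4.21 and 4.099 to 2.12, 2.09 and 2.26 CPM (-1.06 ± 0.20) and rose from 1.96, 1.66 and 0.962 to 12.9, 11.4 and 12.9 CPM (3.02 ± 0.22). BST2 (tetherin) fell by 0.92 on the log2 scale in HEK293T, just short of 2-fold, and rose by 3.74 ± 0.22 in A549, the second largest of the differences that passed the threshold in the effector list at -4.66 ± 0.29. The HEK293T snaR-A libraries held 9.68, 9.33 and 8.83 CPM of IFITM1, between the scramble and the eGFP levels.

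The third pattern rested on HEK293T eGFP replicate 3, the library that carries A549 transcripts. Of the 53 effectors, 13 were called higher past the threshold in HEK293T over the 12 libraries, against 7.94% of all genes, and 4 over the 10 libraries, against 7.03%. These 4 were ISG15, ISG20, PARP12 and MX2. PARP14 and DDX60L, for example, changed by 6.78 and 4.34 with that library and by 1.53 (adjusted p = 0.082) and 0.39 (adjusted p = 0.63) without it. The number of effectors whose response differed between the lines rose from 35 to 46 of 53 when both libraries were left out. Over all genes the counts were 6533 of 24763 and 6963 of 25475. Of the 46 effectors, 45 had the higher effect in A549, a direction called for 17.4% of all genes. The same library raised the NRF2 list. Of 30 targets of this antioxidant factor, 9 were called higher past the threshold in HEK293T over the 12 libraries, against 7.94% of all genes, and 1 over the 10, against 7.03%. NQO1 measured 4.03, 5.06 and 56.3 CPM with eGFP and 4.26, 4.68 and 4.05 CPM with scramble in HEK293T, and about 1802 CPM in the A549 scramble libraries on average. Its HEK293T change was 2.3 ± 0.80 with replicate 3 and -0.01 ± 0.11 without. ABCC2, a drug exporter, was the exception that stayed called, at 3.14 ± 0.77 and 1.12 ± 0.09. The A549 genes AKR1B10, TGFBI and S100A6 and the lncRNA MEG3 had the largest differences of all named genes over the 12 libraries, 8.99, 7.68, 10.1 and 8.81. None of the 4 differences passed the threshold over the 10 libraries (adjusted p = 0.37, 0.55, 1.0 and 0.0503).

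The interferon-stimulated response element was looked for upstream of these genes, as 2 copies of the letters GAAA with any 2 bases between them, on either strand, in the 250 bases before the RefSeq start on GRCh38. It was in the window of 3.71% of all 27305 genes of the promoter table and of 3.45% of the 14223 tested genes that had one. It was in 28 of 42 interferon effectors with a window (66.7%), in 16 of 48 genes higher and limited to A549 (33.3%), in 6 of 9 shared genes, in 2 of 8 opposite genes, and in 11 of 355 genes limited to HEK293T (3.10%). Over the 10 libraries the counts were 20 of 54, 5 of 8, 5 of 11 and 15 of 440 in the same order. The stretches that hold it in the named genes limited to A549, shared or opposite are shown because the same letters precede genes with each of the 3 response patterns. Each runs 5′ to 3′ on the strand of the gene, with the element in capitals. PLEKHA4 and LAMP3 had no window in the table.
IFIT1, limited to A549, chr10:89392504-89392533, + strand: tagTTTCACTTTCcccTTTCGGTTTCccta
GBP1, limited to A549, chr1:89065316-89065345, - strand: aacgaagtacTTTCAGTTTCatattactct
ISG15, higher in both lines, chr1:1013377-1013406, + strand: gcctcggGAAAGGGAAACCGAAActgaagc
ISG20, higher in both lines, chr15:88638937-88638966, + strand: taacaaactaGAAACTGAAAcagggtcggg
PARP12, higher in both lines, chr7:140062952-140062971, - strand: ccggggccgcTTTCGGTTTC
IFITM1, lower in HEK293T and higher in A549, chr11:313990-314019, + strand: caaacagcagGAAATAGAAActtaagagaa
IFI44L, lower in HEK293T and higher in A549, chr1:78620365-78620394, + strand: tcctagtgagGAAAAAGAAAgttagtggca

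Capitals that read TTTC are the element on the opposite strand. IFIT1 holds 2 copies within this stretch, the nearer ending 94 bases before its start. ISG15 holds 2 copies that overlap. IFI44L holds 2 copies, of which the nearer, 64 bases before the start, is shown, and the PARP12 copy ends at the base before the start. A match gives the letters and no evidence that a factor binds there.

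Responses limited to HEK293T ran in both directions and covered other gene groups. The genes of hypoxia and glycolysis were lower with eGFP in HEK293T. Of 43 tested, 37 were lower at an adjusted p under 0.05 and 1 was higher, against 23.5% of all genes lower and 17.5% higher. Over the 10 libraries 39 were lower, against 24.2% of all genes lower and 15.7% higher. Past 2-fold, 13 were lower over the 12 libraries and 15 over the 10, against 2.94% and 3.43% of all genes. Their median log2 fold change was -0.68 in HEK293T and 0.03 in A549, against -0.04 and -0.0041 for all genes, and with library size alone the HEK293T median was -0.51 against 0.12 for all genes. The 95% interval lay within 2-fold in A549 for 41 of the 43, against 17186 of all 24763 genes. The effect differed between the lines for 33, each with the lower effect in HEK293T, against 15.6% of all genes in that direction. SLC2A3, a neuronal-type glucose transporter, fell from 48.9, 42.7 and 39.6 to 11.4, 7.42 and 12.5 CPM in HEK293T (-2.12 ± 0.17, adjusted p = 1e-05). In A549 it was at 59.6, 64.4 and 57.7 CPM with scramble and 61.1, 66.9 and 63.7 CPM with eGFP (0.08 ± 0.16), and 27.8% of its words are shared with another gene. ANKRD37, a hypoxia-induced ankyrin repeat protein, fell from 4.26, 4.21 and 3.34 to 0.985, 0.657 and 0.903 CPM in HEK293T (-2.27 ± 0.17) and changed by 0.24 ± 0.16 in A549, the largest difference of the list at -2.52 ± 0.23 (adjusted p = 6e-05). BNIP3, an inducer of mitophagy, changed by -1.22 in HEK293T and 0.03 in A549, and the glycolytic enzymes ALDOC, ENO2 and PGK1 changed by -1.61, -1.13 and -0.99 in HEK293T and by -0.07, 0.00 and 0.06 in A549. VEGFA, the angiogenic factor, differed little in either line, by -0.22 ± 0.05 and -0.10 ± 0.05.

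SAT1, the enzyme that acetylates spermidine and spermine for export, was the other large fall in HEK293T, from 149, 123 and 112 to 29.6, 25.8 and 50.8 CPM (-1.91 ± 0.23, adjusted p = 0.00011). Replicate 3, the highest eGFP value, is the library with A549 transcripts, and A549 libraries held 494 to 605 CPM of SAT1. Without it the change was -2.28 ± 0.12. In A549 SAT1 changed by 0.07 ± 0.22. ADAMTS1, a secreted metalloprotease, fell in HEK293T from 434, 383 and 379 to 114, 91.8 and 108 CPM (-1.99 ± 0.12) and was under 1 CPM in every A549 library, with a change of -0.03 ± 0.14. Of 16 polyamine genes tested, SAT1 was the 1 that passed the threshold in HEK293T, against 10.9% of all genes. In A549, 15 of the 16 had a 95% interval within 2-fold, against 17186 of all 24763 genes. AZIN2, a regulator of ornithine decarboxylase, changed by -0.64 ± 0.15 in HEK293T and 0.37 ± 0.15 in A549 (difference -1.01 ± 0.21, adjusted p = 0.0055).

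Sterol synthesis genes were also lower in HEK293T. Of 25 tested, 16 were lower at an adjusted p under 0.05, against 23.5% of all genes, with a median of -0.33. INSIG1, IDI1 and MSMO1 passed 2-fold, 3 of 25 against 2.94% of all genes. With library size alone 10 of 25 were lower, against 3183 of all 24763 genes, and 1 was lower past 2-fold, against 428. The HEK293T median was then -0.16, against 0.12 for all genes. INSIG1, the membrane protein that retains the sterol sensor SCAP, fell from 511, 508 and 452 to 202, 166 and 194 CPM (-1.45 ± 0.09, adjusted p = 3.2e-06) and was at 85.1, 86.3 and 81.3 and 90.5, 89.996 and 79.7 CPM in A549 (0.04 ± 0.09). STARD4, a cholesterol transfer protein, changed by -0.74 ± 0.12 in HEK293T and by 0.60 ± 0.12 in A549 (adjusted p = 0.034, and 0.057 without the 2 libraries), in opposite directions within 2-fold. Cytosolic ribosomal protein genes were lower in HEK293T by a smaller amount. Of 77, 75 were lower at an adjusted p under 0.05, against 23.5% of all genes, with a median of -0.54 in HEK293T and 0.02 in A549. All 77 had intervals within 2-fold in both lines, against 14489 of all 24763 genes in HEK293T and 17186 in A549. With library size alone 58 of 77 were lower, against 3183 of all 24763 genes, and the HEK293T median was -0.38, against 0.12 for all genes. RPL41 was at 1360.3, 1501 and 1193 CPM with scramble and 808, 830.1 and 876 CPM with eGFP in HEK293T (-0.75 ± 0.10) and changed by 0.25 ± 0.10 in A549. RPL39 changed by -0.72 ± 0.11 and 0.16 ± 0.11.

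Among genes higher in HEK293T, CYP4F3, a leukotriene omega-hydroxylase, rose from 0.124, 0.0874 and 0.111 to 1.74, 2.14 and 2.42 CPM (4.22 ± 0.16, adjusted p = 7.8e-07). In A549 it stood at 33.1, 36.7 and 38.7 CPM with scramble and 38.2, 35.3 and 35.1 CPM with eGFP (0.00 ± 0.12), and 20.99% of its words are shared with another gene. DNAH17, an axonemal dynein heavy chain, rose from 0.425, 0.658 and 0.755 to 8.65, 11.04 and 6.85 CPM (3.79 ± 0.25) and changed by -0.11 ± 0.22 in A549. CGAS, the cytosolic DNA sensor (chr6:73413515-73452297, GRCh38), was nearly unexpressed in HEK293T with scramble, at 0.138, 0.129 and 0.123 CPM, and measured 0.672, 0.699 and 1.602 CPM with eGFP. The A549 libraries held 26.4, 26.9 and 24.9 CPM with scramble and 29.3, 30.6 and 26.96 CPM with eGFP, so replicate 3 is again the highest HEK293T value. The HEK293T change was 2.86 ± 0.33 with it and 2.31 ± 0.10 without it (adjusted p = 8.1e-05 and 6.7e-06), and the difference between the lines was 2.71 ± 0.41 and 2.19 ± 0.12.

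INHBE, an activin subunit induced by the integrated stress response, rose in HEK293T from 3.07, 2.703 and 2.73 to 11.5, 13.6 and 10.4 CPM (2.0 ± 0.19, adjusted p = 2.6e-05) and was at 0.954, 1.44 and 1.38 and 1.24, 1.65 and 1.06 CPM in A549 (0.07 ± 0.19). The ATF4 targets, a list that includes INHBE, did not move together. Of 29, 10 were higher and 11 lower at an adjusted p under 0.05 in HEK293T, against 17.5% and 23.5% of all genes, and DDIT4, an inhibitor of mTORC1, fell by 1.27 on the log2 scale. The p53 targets were mostly higher in HEK293T, 19 of 26 at an adjusted p under 0.05 against 17.5% of all genes. Past 2-fold there were 3 of 26, near the 7.94% of all genes, with a median of 0.38, against 0.01 in A549. GDF15, a stress-induced cytokine, measured 0.574, 0.574 and 0.443 CPM with scramble and 1.57, 2.01 and 3.79 CPM with eGFP (2.15 ± 0.28, and 1.67 ± 0.12 without replicate 3). PLK2, a kinase of the polo family, changed by 1.63 ± 0.27 and 1.11 ± 0.06 in the same fits. CDKN1A, the cyclin-dependent kinase inhibitor p21, was within 2-fold in both lines, at 0.33 ± 0.09 in HEK293T and 0.01 ± 0.09 in A549. LIF, a cytokine of the interleukin 6 family, rose in HEK293T from 1.601, 1.78 and 1.58 to 6.93, 6.93 and 11.4 CPM (2.3 ± 0.21) and changed by -0.10 ± 0.20 in A549.

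The NPIP and SMG1P genes, segmental duplications of chromosome 16, were higher in HEK293T for 12 of 26 past 2-fold, against 7.94% of all genes, with a median of 1.02 against -0.10 in A549. NPIPB6 rose from 1.74, 1.39 and 1.65 to 8.27, 10.02 and 7.62 CPM (2.38 ± 0.12), but 93.4% of its words occur in other genes, so that the copies cannot be separated with certainty. The same holds for SMG1P6 (1.62 ± 0.22, 93% shared) and SMG1P3 (2.68 ± 0.62, 99.5% shared). Replication-dependent histone genes, whose transcripts mostly lack a poly(A) tail and so are poorly sampled by poly(A) enrichment, were higher past 2-fold in HEK293T for 8 of 48, against 7.94% of all genes, and over the 10 libraries for 13 of 49, against 7.03%. H3C6 rose from 2.32, 2.08 and 2.49 to 8.95, 10.1 and 8.81 CPM (1.96 ± 0.10) and changed by 0.11 ± 0.09 in A549. The snoRNA host SNHG15 rose from 26.96, 26.5 and 24.7 to 59.5, 65.6 and 53.7 CPM (1.13 ± 0.13), and the paraspeckle protein SFPQ from 381, 366 and 398 to 684, 771 and 677 CPM (0.84 ± 0.10), with A549 changes of 0.04 ± 0.13 and -0.11 ± 0.10.

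HSPA6, a strictly inducible HSP70 chaperone, was higher in HEK293T at 0.787, 0.92997 and 0.801 CPM with eGFP against 0.252, 0.234 and 0.287 CPM (1.64 ± 0.37, adjusted p = 0.0048). Its class in A549 turned on scramble replicate 3. The A549 eGFP libraries were at 2.29, 2.24 and 2.12 CPM and the scramble libraries at 0.721, 0.6695 and 2.08 CPM, while the A549 libraries with SF3B2 plasmid, the transcript that is high in scramble replicate 3, were at 8.64, 8.42 and 8.89 CPM. The A549 change was 0.94 ± 0.35 with that library (adjusted p = 0.49) and 1.67 ± 0.16 without it (adjusted p = 0.00033), where the HEK293T change was 1.66 ± 0.16.

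Further lists showed smaller or mixed changes. Over all 24763 genes, the 95% interval lay within 2-fold for 14489 in HEK293T and 17186 in A549. It did so for all 30 proliferation genes in both lines. Their largest differences that passed the threshold were those of the mitotic kinase CDK1 (-0.49 ± 0.10) and the replication clamp PCNA (-0.40 ± 0.09). Of the 13 mitochondrially encoded genes, 12 had intervals within 2-fold in HEK293T and 8 had them in A549. Over the 10 libraries 13 and 3 had them, against 14243 and 16911 of all 25475 genes. Of the 10 SF3A and SF3B genes, 9 had such intervals in each line, and SF3B6 and SF3B4 differed between the lines by -0.51 ± 0.08 and 0.41 ± 0.10. Of 17 ER chaperone and stress genes, 7 had a lower effect in HEK293T than in A549, against 15.6% of all genes, among them the co-chaperone DNAJB9 (-0.70 ± 0.14) and the sensor ERN1 (-0.62 ± 0.07). The heat shock genes HSPH1 and BAG3 had a higher effect in HEK293T, by 0.61 ± 0.08 and 0.57 ± 0.09, as did the zinc genes MTF1 (0.55 ± 0.08) and SLC30A1 (0.47 ± 0.11).

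The immediate early genes DUSP6 and FOSL1, a MAP kinase phosphatase and an AP-1 subunit, passed 2-fold in HEK293T with eGFP replicate 3, at 1.2 ± 0.30 and 1.17 ± 0.35, and not without it, at 0.65 ± 0.14 and 0.54 ± 0.18. The epithelial cadherin CDH1 moved the other way, from -0.93 ± 0.14 with that library to -1.17 ± 0.06 without it, and was at 10.5, 9.401 and 9.51 CPM with scramble and 4.62, 4.58 and 6.82 CPM with eGFP. Of 24 genes listed for epithelial-mesenchymal transition, 13 were lower and 3 higher in HEK293T at an adjusted p under 0.05. All genes were lower for 23.5% and higher for 17.5%. Over the 10 libraries the list had 16 lower and 2 higher, against 24.2% and 15.7%. Its HEK293T medians were -0.30 and -0.49. The histone H3C12, which shares 38.2% of its words with other genes, changed by 1.51 ± 0.28 in HEK293T. The snoRNA host SNHG32 had a difference of 6.11 ± 1.12 but varied within its groups, at 0.698, 2.55 and 0.555 CPM with eGFP and 0.04496, 0.06295 and 0.04104 CPM with scramble in HEK293T and at 0.194, 0.156 and 0.125 and 0.821, 0.474 and 0.0764 CPM in A549.

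**Figure D4:**
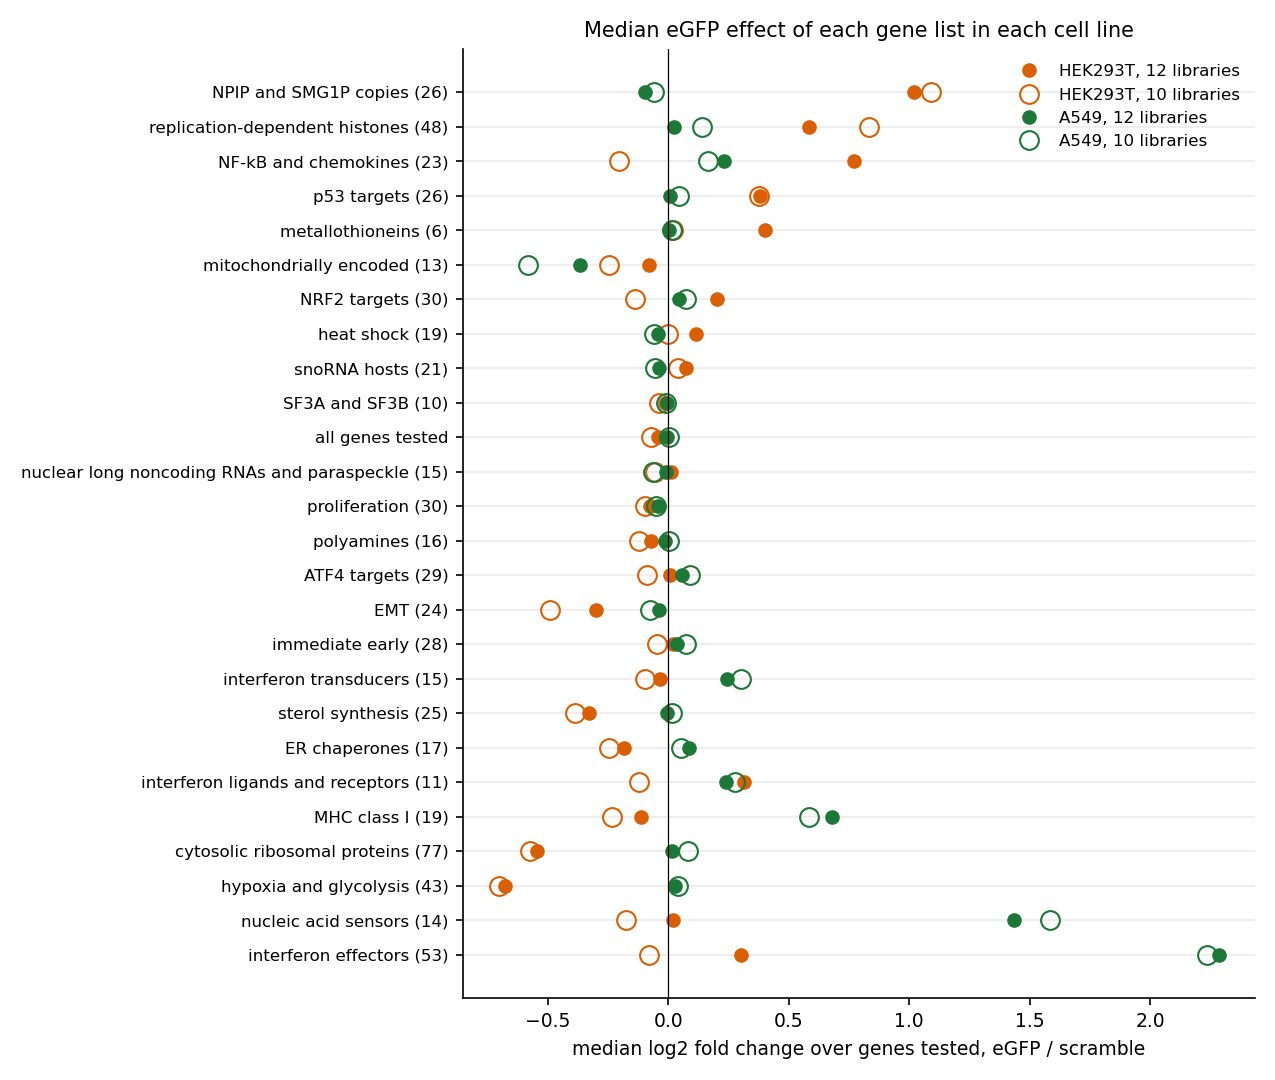
Median log2 fold change of eGFP against scramble over the tested genes of each list (number in parentheses), in HEK293T (orange) and A549 (green), over 12 libraries (filled) and 10 libraries (open), ordered by the median difference over 12 libraries. Interferon effectors stand at 2.28 in A549, and hypoxia and glycolysis at -0.68 and ribosomal proteins at -0.54 in HEK293T. Several lists change sign in HEK293T between the fits, among them interferon effectors (0.30 and -0.08), NF-kB (0.77 and -0.21) and NRF2 (0.20 and -0.14).

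The other plasmids were compared with the same scramble libraries. Of the 564 genes limited to HEK293T in both fits, 361 were higher with eGFP, and 350 of these were also higher with snaR-A plasmid and 356 with SF3B2 plasmid than with scramble. The median difference from scramble, in mean log2(CPM + 0.01), was 1.55 for eGFP, 0.95 for snaR-A and 1.14 for SF3B2. The 203 lower genes were all lower with snaR-A and with SF3B2 as well, by medians of -0.69 and -0.96, against -1.14 for eGFP. These counts and medians use the scramble libraries on which the genes were chosen. That choice alone can place the other plasmids on the side of eGFP, and the share over all genes was not computed. SAT1, for example, measured 50.4, 33.9 and 43.9 CPM with snaR-A and 59.8, 50.9 and 39.9 CPM with SF3B2, nearer to eGFP than to scramble, and SLC2A3 measured 23.7, 14.3 and 18.6 and 22.6, 21.6 and 17.04 CPM. CGAS was at 0.219, 0.345 and 0.356 and 0.414, 0.464 and 0.609 CPM, between scramble and eGFP. INHBE was at 6.39, 7.64 and 6.24 CPM with snaR-A and 2.46, 2.54 and 3.497 CPM with SF3B2, the last at the scramble level.

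In A549 the other plasmids stood nearer to scramble, on the side of eGFP. One of these libraries, snaR-A replicate 3, is titled A549 but carries HEK293T in its cell line field. Its 12 A549 genes summed to 11159 CPM, as in the other A549 libraries. For the 62 genes higher and limited to A549 in both fits, the median difference from scramble was 1.46 for eGFP, 0.20 for snaR-A and 0.40 for SF3B2. Of the 62, 58 were higher than with scramble for snaR-A and 62 for SF3B2. Here too the genes were chosen on these scramble libraries, with the same limit. IFIT1 was at 112, 143 and 225 CPM with snaR-A and 244, 264 and 194 CPM with SF3B2 in A549, above most or all of the scramble libraries. When snaR-A libraries replaced scramble as the control and HEK293T eGFP replicate 3 was left out, 74 of the 564 genes limited to HEK293T (13.1%) were still called in the same direction, against 50 of the 64 limited to A549 (78.1%). Over all genes of that fit, 518 of 25772 were called in HEK293T and 207 in A549, in either direction. With SF3B2 libraries as the control the numbers were 33 of 564 (5.85%) and 45 of 64 (70.3%), beside 182 and 224 of all 25393 genes. By list, 50 of 53 interferon effectors were higher past the threshold in A549 against snaR-A and 48 of 53 against SF3B2. Over all genes the counts were 187 of 25772 and 157 of 25393. Of 43 hypoxia and glycolysis genes, 1 was lower past the threshold in HEK293T against each, beside 82 and 52 of all genes. At an adjusted p under 0.05 alone, 25 of the 43 were lower against snaR-A and 7 against SF3B2, beside 2215 and 579 of all genes. The hypoxia and glycolysis medians in HEK293T were -0.26 and -0.17. By the same adjusted p, 37 of 77 ribosomal protein genes were lower against snaR-A and 1 against SF3B2 (medians -0.21 and -0.05). Of 25 sterol genes, 9 and 1 were lower (medians -0.17 and -0.01). Of 26 p53 targets, 5 and 2 were higher and 1 and 2 lower, beside 1112 and 515 of all genes higher. Of 27 NPIP and SMG1P copies, 0 were higher past 2-fold against either, beside 436 and 130 of all genes. The controls are separate libraries, but the eGFP libraries are shared by these comparisons.

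**Figure D5:**
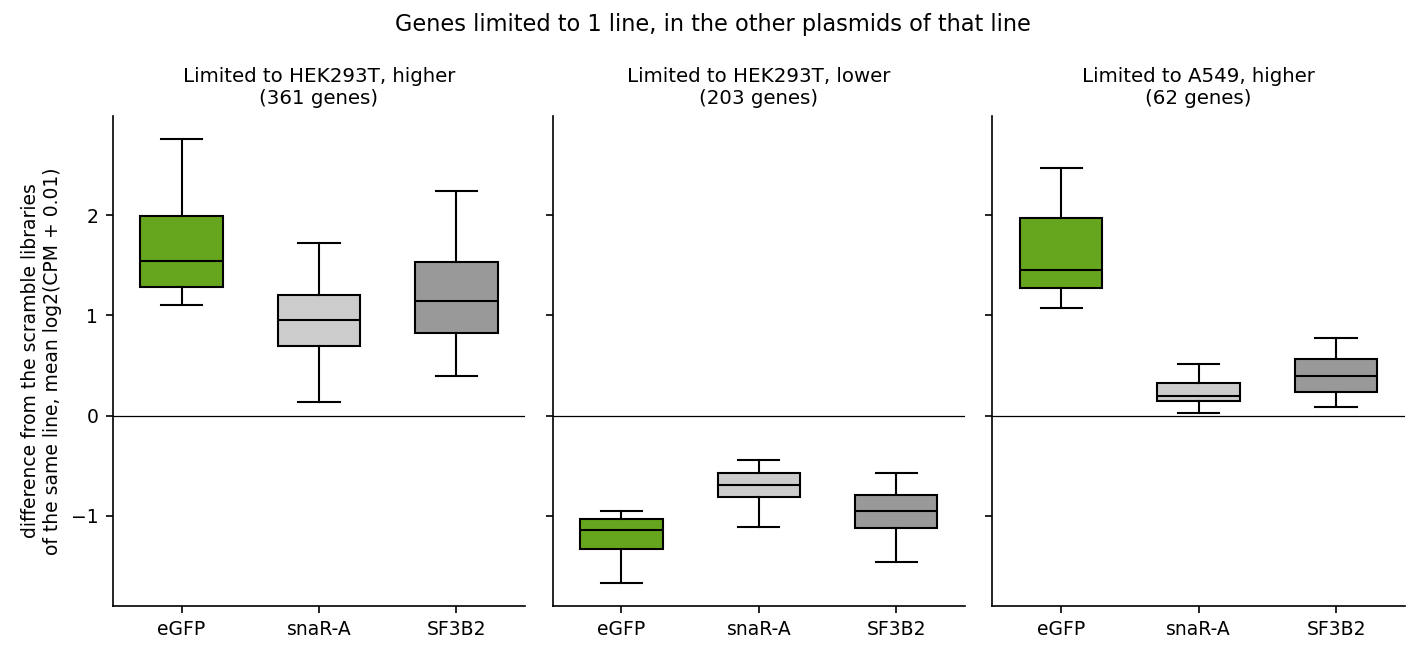
Difference from the scramble libraries of the same line, in mean log2(CPM + 0.01), for eGFP, snaR-A and SF3B2 plasmids, over the genes limited to 1 line in both fits; boxes span the quartiles, lines are medians and whiskers reach the 5th and 95th percentiles of genes. In HEK293T the medians of the other plasmids (0.95 and 1.14, -0.69 and -0.96) lie toward those of eGFP, and in A549 (0.20 and 0.40) they lie above 0 but well below the 1.46 of eGFP. Genes were chosen on eGFP against these scramble libraries. That choice can also place the other plasmids on the side of eGFP, so all boxes are a description.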

How the data were processed

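The authors trimmed reads with Trim Galore and quantified transcripts with Salmon. The deposited values are estimated counts for 60236 Ensembl IDs in 1 table, with no scaling between libraries. The build in the submitters' processing notes is hg38, and the transcriptome release and the step from transcripts to genes are not given in the sources used here. Of the values, 50.8% were not whole, and they were rounded before testing. Symbols came from a gene table with records for 54903 IDs. The other 5333 IDs held 2.55% of the counts and were tested but not named. Positions came from GENCODE 44 on GRCh38 and promoter windows from RefSeq on GRCh38.p14.

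Groups were taken from the labels (line and plasmid). The 12 libraries were filtered with filterByExpr, scaled by TMM and fitted with edgeR 4.0.16 (R 4.3.3, limma 3.58.1) with 1 coefficient for each of 4 groups. The HEK293T effect, the A549 effect and their difference, HEK293T minus A549, were tested by edgeR's quasi-likelihood method, with p-values adjusted after Benjamini and Hochberg at 0.05, and line effects were called past a log2 fold change of 1. Standard errors were the fold change divided by the root of F. Printed CPM used TMM factors over all 24 libraries. The step was tested on simulated counts. DESeq2 1.42.0 and the other alternatives are given in the closing section. Tables and figures used Python 3.11.15.

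Gene lists were described by counts and medians. The named genes were the 3 with the largest difference in each class and direction (mean log2 CPM of at least 1, groups apart, same class without the 2 libraries), the 2 with the largest difference in each list, and a fixed set of 19, of which STING1 and IRF9 are not analysed here and 1 is not reported here. The comparison, the lists and the rule were chosen with earlier results of these data known. List members named outside this rule were chosen as examples after their values were seen. Replicate numbers did not pair the libraries.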

Additional observations from a re-analysis of the deposited data

Results flagged for a closer look

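For each gene here the eGFP effect differed between HEK293T and A549 by the interaction test over the 12 libraries (edgeR's quasi-likelihood test, adjusted p under 0.05). The value after each gene is the difference of the log2 fold changes, HEK293T minus A549. Several genes of a list were picked for the size of this difference, so the values are descriptions.

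Interferon genes, together with PLEKHA4, had negative differences, a higher effect in A549. They were IFITM1 (-5.49), BST2 (-4.66), IFI44L (-4.51), LAMP3 (-4.08), IFIT1 (-3.51), PLEKHA4 (-3.26), GBP1 (-3.04) and ISG15 (-1.91) among effectors and classes, TLR3 (-3.23), IFIH1 (-2.79) and RIGI (-2.4) among sensors, STAT2 (-2.21) and SOCS1 (-1.48) among transducers, IFNAR2 (-0.88) and IFNGR2 (-0.47) among receptors, HLA-F (-3.17) and NLRC5 (-2.42) in the MHC class I list and CXCL10 (-2.92) among chemokines. ISG20 (0.73) and CGAS (2.71) were the exceptions, with a higher effect in HEK293T.

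Metabolic and growth genes that fell in HEK293T gave negative differences, at ANKRD37 (-2.52), SLC2A3 (-2.2), SAT1 (-1.97), AZIN2 (-1.01), ADAMTS1 (-1.96), INSIG1 (-1.49), STARD4 (-1.34) and DDIT4 (-1.35). Smaller negative differences were those of RPL41 (-0.99), RPL39 (-0.88), CDH1 (-1.25), NEFM (-0.97), NEFL (-0.73), DNAJB9 (-0.7), ERN1 (-0.62), SF3B6 (-0.51), CDK1 (-0.49) and PCNA (-0.4).

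Positive differences, a higher effect in HEK293T, were those of CYP4F3 (4.22), DNAH17 (3.9), LIF (2.39), INHBE (1.93), GDF15 (2.02), PLK2 (1.6), NPIPB6 (2.48), SMG1P6 (1.75), H3C6 (1.85), H3C12 (1.62), SNHG15 (1.1), SNHG32 (6.11) and SFPQ (0.95), and, at smaller size, of SF3B4 (0.41), SLC30A1 (0.47), MTF1 (0.55), BAG3 (0.57) and HSPH1 (0.61). Those of S100A6 (10.1), AKR1B10 (8.99), MEG3 (8.81), TGFBI (7.68), ABCC2 (3.05), FOSL1 (1.46) and DUSP6 (1.26) were larger with HEK293T eGFP replicate 3, the library with A549 transcripts, than without it. This group is not complete, because the HEK293T effects of GDF15, PLK2 and CGAS were also larger with that replicate.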

How the results depend on the processing

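The counts of differing genes, of calls in each line and of responses limited to a line stayed within 1.5 times of the values in the report with DESeq2's size factors, with library size alone, without a filter on low counts, with the DESeq2 Wald test, in 1 fit of all 24 libraries and without both libraries that stand apart. With at least 10 counts in every library the HEK293T calls were 1272 against 2695. The alternative that moved most was the control. With snaR-A libraries in place of scramble there were 1616 differing genes against 6533, 578 HEK293T calls, 86 responses limited to HEK293T, 4 shared and 3 opposite. With HEK293T eGFP replicate 3 also left out, a choice made after seeing the data, they were 2111, 518, 113, 5 and 5, and with SF3B2 libraries in place of scramble, likewise chosen after seeing the data, 1772, 182, 56, 4 and 3. The responses limited to A549 were 84, 84 and 90 under these controls, against 70.

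Leaving out each library in turn gave 5016 to 6743 differing genes, 2231 to 2820 HEK293T calls, 163 to 203 A549 calls, 557 to 767 responses limited to HEK293T, 64 to 83 limited to A549, 16 to 32 shared and 7 to 15 opposite. Without HEK293T eGFP replicate 3, 16 were shared and 15 opposite.

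The replicate block gave 4543 differing genes, 2563 HEK293T calls, 173 A549 calls, 726 and 76 limited responses, 23 shared and 7 opposite. Residuals of same-numbered libraries correlated across genes at -0.025, 0.0040 and -0.023 in HEK293T and -0.098, -0.010 and -0.13 in A549, so the numbers name the libraries and do not pair them.

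Of 5082 values of the 74 named genes compared across alternatives, 4494 kept their direction and side of the threshold, 329 lost it, 56 gained it and 44 changed sign with an adjusted p under 0.05 in 1 of the fits. A further 159 changed sign with an adjusted p of 0.05 or more in both. With snaR-A as control, the sign changed to the value given for the HEK293T effect of IFNGR2 (0.033) and VEGFA (0.031) and for the difference between the lines of ISG20 (-0.38) and SNHG32 (-0.24). With snaR-A as control and HEK293T eGFP replicate 3 left out, the sign changed to the value given for the HEK293T effect of IFNGR2 (0.011) and VEGFA (0.0024) and for the difference between the lines of ISG20 (-0.32). With SF3B2 as control and that replicate left out, the sign changed to the value given for the HEK293T effect of IFNGR2 (0.072), ERN1 (0.11), HSPH1 (-0.15), BAG3 (-0.022), AZIN2 (0.26), GDF15 (-0.46), AKR1B10 (-3.93), FOSL1 (-0.035), DUSP6 (-0.034), SF3B4 (-0.078), TGFBI (-1.60), S100A6 (-5.16), RIGI (-1.03), VEGFA (0.10), CDKN1A (-0.017) and NQO1 (-0.0070) and for the A549 effect of HSPA6 (-1.96) and for the difference between the lines of PARP12 (-1.14), ISG20 (-0.47), LIF (-0.17), HSPH1 (-0.086), AZIN2 (0.087), GDF15 (-0.61), AKR1B10 (-3.87), ABCC2 (-0.17), DUSP6 (-0.15), SFPQ (-0.027), SF3B4 (-0.12), SLC30A1 (-0.12), TGFBI (-1.43), S100A6 (-5.11) and NEFL (0.16). The SF3B2 control group holds HEK293T SF3B2 replicate 3, which had the 12 A549 genes at a median of 0.132% of their A549 level. SF3B2 replicates 1 and 2 had them at 0.0244% and 0.0313%. No fit left that library out, and its part in these sign changes was not tested. Without both libraries that stand apart, the sign changed to the value given for the HEK293T effect of S100A6 (-0.023) and NQO1 (-0.0072) and for the difference between the lines of S100A6 (-0.036). Over the fits that left out 1 library each, the HEK293T effect ran from -0.025 to 13.05 for S100A6 and from -0.0090 to 2.79 for NQO1, with the negative values without HEK293T eGFP replicate 3.

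Genes near 3 counts, such as IFNB1 in HEK293T, have no measurable effect at this depth. The causes of these shifts were not tested.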
